A study of Mus musculus with 18 samples.

Results

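Hcfc1 was at the detection limit in embryos homozygous mutant for Nkx2-5 and well above it in heterozygous and wild-type embryos, and the question asked here was whether other chromatin regulators were lower with it. Probe sets of 10 genes were followed by symbol through the annotation of both array types: Hcfc1, Cenpb, Rcc1, Dnmt1, Ezh2, Hdac1, Hdac2, Smarca4, Cbx1 and Cbx5. They had 13 probe sets, of 13057 in the series, and all 13 were bright enough to be among the 6935 tested. Hcfc1 and Cenpb had been chosen by their low intensity in the mutants relative to wild type, so their differences between the homozygous mutants and the other genotypes are described without a test. The other 8 genes had 11 probe sets, and the series had 6137 named genes in all.

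RNA came from the middle of 3 parts into which mouse embryos of embryonic day 9.5 had been divided. The groups were embryos homozygous mutant for Csx, which is the gene Nkx2-5, embryos heterozygous for it, and wild-type embryos. Each genotype was measured on 3 arrays of type a and 3 arrays of type b, which carry different probe sets, for 18 arrays in all. Nkx2-5 is a homeobox gene needed for heart development, and no probe set carried its symbol, so the genotypes are those of the labels. The labels give no strain, kind of mutant allele, litter or pooling, so the p-values reflect the spread among these arrays, and part of that spread may be technical.

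HCF-1, the product of Hcfc1, is a nuclear scaffold without DNA binding of its own that joins promoter-bound factors to enzymes that methylate histone H3 or remove its acetyl groups, and it is known for promoting passage through the cell cycle. The other 9 genes cover the centromere, the Ran cycle, maintenance of DNA methylation, Polycomb repression, histone deacetylation, nucleosome remodelling and heterochromatin. All of these activities are used by dividing embryonic cells in general rather than by the heart alone.

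Transcription of Hcfc1, Cenpb and Rcc1 starts from the promoters below, which are shown because these were the 3 genes with the lowest values in the mutants relative to wild type. Each line runs from 250 bases before to 50 bases after the annotated start, as given by RefSeq on build GRCm38.p6, and all 3 lie on the minus strand, at chrX:73966308-73966607 for Hcfc1, chr2:131180018-131180317 for Cenpb and chr4:132345701-132346000 for Rcc1. The annotated Hcfc1 gene runs further, to chrX:73966995, so sequence before that end of the gene was not searched. Capitals mark matches to the motifs searched.
Hcfc1: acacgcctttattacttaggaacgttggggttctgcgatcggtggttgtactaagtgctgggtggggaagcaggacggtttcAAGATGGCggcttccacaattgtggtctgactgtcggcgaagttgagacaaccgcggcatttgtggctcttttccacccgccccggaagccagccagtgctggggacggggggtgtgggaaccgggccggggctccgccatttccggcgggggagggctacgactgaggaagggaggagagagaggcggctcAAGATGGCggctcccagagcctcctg
Cenpb: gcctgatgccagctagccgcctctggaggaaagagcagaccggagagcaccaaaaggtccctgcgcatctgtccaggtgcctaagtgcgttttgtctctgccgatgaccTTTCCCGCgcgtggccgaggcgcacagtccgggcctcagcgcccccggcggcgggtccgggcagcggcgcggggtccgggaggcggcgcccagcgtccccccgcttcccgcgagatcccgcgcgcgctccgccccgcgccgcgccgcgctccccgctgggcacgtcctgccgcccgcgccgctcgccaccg
Rcc1: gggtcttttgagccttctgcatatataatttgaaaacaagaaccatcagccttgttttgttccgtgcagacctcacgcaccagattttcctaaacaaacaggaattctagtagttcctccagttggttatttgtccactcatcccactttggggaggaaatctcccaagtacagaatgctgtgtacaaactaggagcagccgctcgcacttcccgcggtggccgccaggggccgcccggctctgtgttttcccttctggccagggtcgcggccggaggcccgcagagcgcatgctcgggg
The Hcfc1 promoter held 2 matches to AAGATGGC, the motif of Yy1, beginning 168 bases before and 24 bases after the start. Cenpb held 1 match to TTTCCCGC, a motif of E2F factors, 141 bases before its start, and Rcc1 held none. A set of 5 motifs of factors known to work with HCF-1 were searched on both strands: ACTACAA for Zfp143 and Thap11, ACCGGAAG for Gabpa, AAGATGGC for Yy1, and TTTGGCGC and TTTCCCGC for E2F factors. Of all 32851 promoter windows of the same length, 3.24%, 2.3%, 2.75%, 0.514% and 1.07% held them in that order. A promoter was listed for 9 of the 10 genes, in 12 windows, and Hdac1 was not listed. TTTGGCGC was found near the starts of Dnmt1 and Ezh2, and ACTACAA and ACCGGAAG in none of the 12 windows. No motif of this set was therefore shared by Hcfc1, Cenpb and Rcc1. The 3 windows differed in base composition, with 62.0%, 75.7% and 54.3% G or C and 21, 45 and 15 CpG dinucleotides, beside medians of 52.7% and 7 over all windows.

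The deposited values are intensities on a linear scale that also run below 0, and values under a floor, 375.1 for type a and 523.1 for type b, were set to it before log2 was taken. Hcfc1, on type b, had intensities of 358.5, 506.7 and 449.1 in the homozygous mutants, against 1964.2, 1866.9 and 2198.8 in heterozygotes and 1169.3, 1557.5 and 1599.9 in wild type. All 3 mutant values lay under the floor and all 6 others above it. Hcfc1 was therefore at least 2.73-fold lower in the mutants than in wild type and at least 3.83-fold lower than in heterozygotes. These folds are lower bounds set by the floor, and at a floor of 4 times the noise in place of 2 the log2 difference from wild type shrank to -0.45. Its heterozygous values were all above its wild-type values, by 0.49 on the log2 scale (SE 0.249), in a comparison where 3.73% of all tested probe sets, and 5.77% of those on type b, had every heterozygous value above every wild-type value. No probe set of the 6935 passed the threshold between heterozygous and wild-type embryos at an adjusted p under 0.05 in limma, and 118 had an unadjusted p under 0.05.

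Cenpb encodes a protein that binds a motif in centromeric satellite DNA. It had 596.8, 337.8 and 213.1 in the homozygous mutants, against 1125.2, 1607.2 and 1780.4 in heterozygotes and 1642.9, 928.3 and 1187.3 in wild type. The mutants did not overlap the other genotypes, and only 1 of the 3 mutant arrays exceeded the floor. The log2 difference was -1.16 (SE 0.290) from wild type and -1.43 from heterozygotes. Because 2 mutant arrays were set to the floor, both values understate the difference. Heterozygous and wild-type values overlapped. The third mutant array, number 9 of type b, gave the lowest Cenpb value, and without it the difference from wild type was -1.13.

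**Figure D1:**
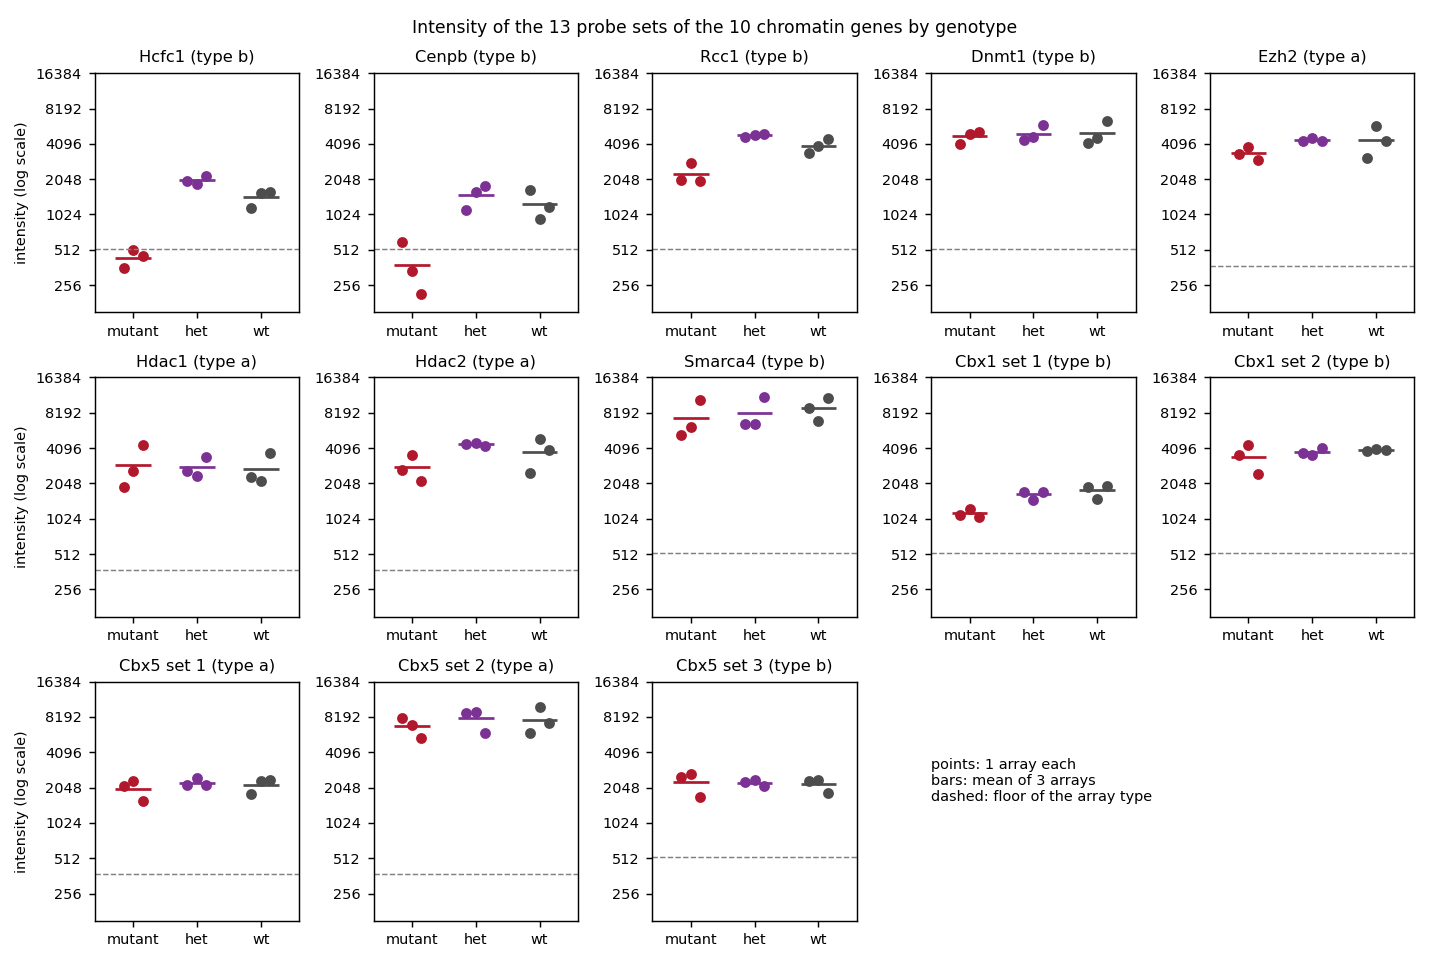
Intensity on a log axis for the 13 probe sets of the 10 genes, with homozygous mutants (mutant) left of heterozygotes (het) and wild type (wt); points are single arrays in the order of their replicate numbers, bars are means of 3 arrays and dashed lines are the floors, 523.1 for type b and 375.1 for type a. The Hcfc1 mutants lie under the floor and the Rcc1 mutants between 1989.4 and 2828.6, under all other Rcc1 arrays, while most other panels overlap.

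Rcc1, the exchange factor that charges the small GTPase Ran while bound to chromatin, had the lowest log2 difference from wild type among the other 8 genes. Its intensity was 2023.2, 2828.6 and 1989.4 in the homozygous mutants, against 4680.3, 4887.2 and 4991.6 in heterozygotes and 3451.7, 3934.1 and 4468.6 in wild type. The 3 genotypes did not overlap, with the mutants lowest and the heterozygotes highest. The genes followed here were chosen with earlier results of these data known, and the basis for choosing Rcc1 is not stated. Its p-values may therefore rest on values behind that choice. Against heterozygotes Rcc1 fell 2.16-fold (log2 fold change -1.11, SE 0.201, adjusted p = 0.0268 in limma). Against wild type it was 1.75-fold lower, with a log2 difference of -0.80 (95% confidence interval -1.25 to -0.36) that did not pass (adjusted p = 0.119). The fall against heterozygotes passed in 12 of 19 other settings, with adjusted p from 0.0163 to 0.148. It was lost without heterozygote 3, 4 or 8, without mutant 2 or without wild type 5, at adjusted p = 0.122, 0.148, 0.0771, 0.102 and 0.0527 in that order, and also without a filter on low values or with only mutants and heterozygotes in the fit (adjusted p = 0.0545 and 0.0767). Without the third mutant array it remained at -1.02 (adjusted p = 0.0477). Heterozygotes exceeded wild type by 0.30 (adjusted p = 1), again without overlap.

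Among the 11 probe sets of the 8 genes other than Hcfc1 and Cenpb, 0 passed the threshold between homozygous mutants and wild type, where 0.187% of all 6935 tested probe sets were called lower and 0.505% higher. Unadjusted p was under 0.05 for 777 of 6935 tested probe sets and for 2 of the 11, Rcc1 and the dimmer probe set of Cbx1. These 2 were also the ones whose mutant values all lay under the wild-type values, beside 8.19% of all tested probe sets. Log2 differences were below 0 for 9 of the 11, with a median of -0.24, beside 53% of all tested probe sets and a median of -0.02. Against heterozygotes 1 of the 11 was called lower, Rcc1, beside 0.418% of all tested probe sets. Of these 11, 4 had no overlap on the lower side, beside 12.6%, and 10 were below 0, beside 57.5%. The comparisons share the mutant arrays, and the same 9 arrays of a type set the spread in each. Between heterozygotes and wild type 0 of the 11 passed, beside 0% of all tested probe sets, and the median was 0.06, beside 0.03. On the higher side 1 of the 11, Rcc1, lay without overlap, beside 3.73% of all tested probe sets and 5.77% on type b.

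**Figure D2:**
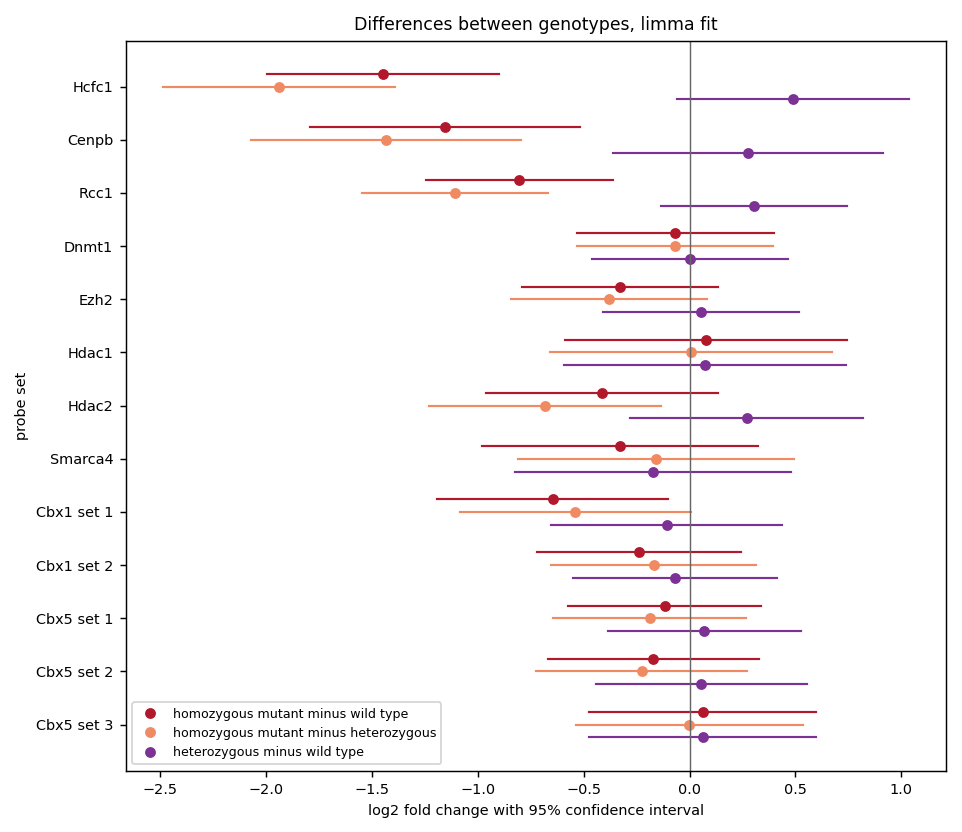
Log2 fold changes of the 13 probe sets with their 95% confidence intervals from limma, with homozygous mutant minus wild type on top, homozygous mutant minus heterozygous below it and heterozygous minus wild type lowest in each row. The points of Hcfc1, Cenpb and Rcc1 lie left of 0 in both comparisons of the mutants, at -1.45, -1.16 and -0.80 against wild type. Hcfc1 and Cenpb were picked by this difference, and every Hcfc1 mutant value was set to the floor. Their intervals in the comparisons of the mutants are therefore no test. Of the other probe sets, only those of Rcc1 and the dimmer one of Cbx1 (set 1) have intervals against wild type that exclude 0.

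Cbx1 and Cbx5 encode heterochromatin proteins of the HP1 family, which bind methylated histone H3. The dimmer Cbx1 probe set had 1094.5, 1244.3 and 1066.8 in the homozygous mutants, against 1734.6, 1488.3 and 1729.7 in heterozygotes and 1904.6, 1493.0 and 1963.1 in wild type. All mutant values were the lowest, yet the log2 difference from wild type, -0.65 (SE 0.248), did not pass (adjusted p = 0.346). The brighter probe set, made from the same transcript sequence, had 3595.9, 4355.0 and 2439.0 in the mutants, against 3752.5, 3545.3 and 4090.1 in heterozygotes and 3900.3, 4055.2 and 3973.0 in wild type. Here the mutants spread to both sides of the others, and the difference from wild type was -0.24 (adjusted p = 0.760). Without the third mutant array it was -0.01, so the 2 Cbx1 probe sets disagree in how far the mutants lay below wild type. Cbx5 had 3 probe sets, with means of 2005, 6800 and 2303 in the mutants, 2258, 7987 and 2261 in heterozygotes and 2162, 7733 and 2177 in wild type. All of them overlapped between genotypes, and their differences from wild type were -0.12, -0.17 and 0.06 (adjusted p = 0.899, 0.865 and 0.951). The intervals reached no lower than -0.67.

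Hdac1 and Hdac2 encode the paired catalytic subunits of several corepressor complexes. Hdac1, on type a, had 1918.5, 2594.9 and 4348.5 in the homozygous mutants, against 2617.9, 2359.2 and 3463.9 in heterozygotes and 2325.5, 2140.6 and 3693.8 in wild type. Its log2 difference from wild type was 0.08 (95% confidence interval -0.59 to 0.74, adjusted p = 0.951), and -0.24 without the third mutant array, which carried the highest value. Hdac2 had 2662.5, 3603.3 and 2142.6 in the mutants, against 4408.0, 4500.7 and 4279.3 in heterozygotes and 2490.8, 4916.9 and 3961.1 in wild type. The Hdac2 mutants lay under every heterozygote, with a difference of -0.68 (adjusted p = 0.214), but overlapped wild type, with -0.41 (adjusted p = 0.584).

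Ezh2 encodes the methyltransferase of Polycomb repressive complex PRC2, and Dnmt1 the enzyme that copies DNA methylation after replication. Ezh2 had 3371.3, 3876.6 and 2994.5 in the homozygous mutants, against 4358.4, 4579.8 and 4342.9 in heterozygotes and 3088.4, 5839.9 and 4311.1 in wild type. The mutants were again under every heterozygote (-0.38, adjusted p = 0.410) and overlapped wild type (-0.33, adjusted p = 0.616). On the type a arrays Ezh2 and Hdac2 shared an order, since wild type 1 was the lowest and wild type 5 the highest of the wild-type arrays for both. Dnmt1 had 4115.0, 5015.4 and 5163.3 in the mutants, against 4445.0, 4689.4 and 5888.1 in heterozygotes and 4157.8, 4563.9 and 6454.1 in wild type. Its genotypes overlapped throughout, with a difference of -0.07 from wild type whose interval ran from -0.53 to 0.40 (adjusted p = 0.941).

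Smarca4 encodes BRG1, the ATPase of the SWI/SNF remodelling complexes and a known partner of cardiac transcription factors. It had 5326.3, 6225.4 and 10507.2 in the homozygous mutants, against 6524.4, 6620.8 and 11179.9 in heterozygotes and 9003.3, 6967.8 and 11041.6 in wild type. Mutant 9, heterozygote 8 and wild types 1 and 7 lay above the other 5 arrays, and the genotypes overlapped (-0.33, 95% confidence interval -0.98 to 0.32, adjusted p = 0.752). Without the third mutant array the difference was -0.62 (adjusted p = 0.371). The highest array of each genotype, mutant 9, heterozygote 8 and wild type 7, also had the highest ratio of 3' to 5' actin signal of its genotype on type b, at 2.28, 1.2 and 1.4. A raised ratio can be a sign of shortened RNA, and only mutant 9 stood apart, since the other type b arrays had 0.849 to 1.4. The same match in all 3 genotypes held for Dnmt1 on type b and for Hdac1 on type a, where the ratios were 2.5 for mutant 8, 1.2 for heterozygote 8 and 1.41 for wild type 7. These were 3 of the 13 probe sets, beside 8.25% of all tested probe sets. The part of RNA quality in these values was not tested.

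**Figure D3:**
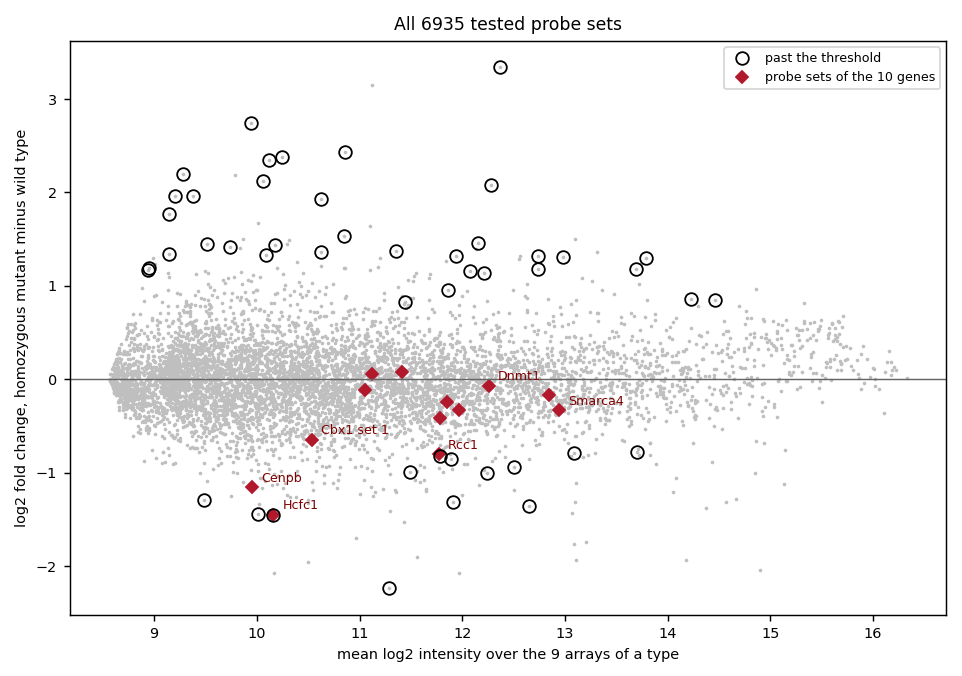
Log2 fold change of homozygous mutant minus wild type against the mean log2 intensity for all 6935 tested probe sets, with rings on the 48 past the threshold and diamonds on the 13 probe sets of the 10 genes. Hcfc1, which was picked by this difference, is the diamond with a ring, Cenpb and Rcc1 lie at the lower edge of the cloud, and the other diamonds lie within it.

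Trimmed means lay within 0.863% among type a arrays and 0.675% among type b arrays, but medians were less even. Type b medians were 324.5 to 354.6 in heterozygotes, 269.35 to 317.35 in wild type and 271.8 to 335 in mutants. For mutants minus heterozygotes, the median over all tested probe sets was -0.0712. It became -0.0015 after median scaling and -0.0059 after quantile normalization. Rcc1 was at -0.99 against heterozygotes after either and still passed (limma adjusted p = 0.0403 and 0.0392). The third mutant array, number 8 of type a and number 9 of type b, stood apart in its controls on both types. The labels do not say that these 2 arrays hold the same RNA, so treating them as 1 replicate is an assumption. The actin ratio of the third mutant array was 2.5 and 2.28, against 0.967 to 1.41 and 0.849 to 1.4 on the other arrays. Its BioB spike-in was 3950 and 4531, against at most 1539 and 2320. Without it the Rcc1 difference from wild type was -0.72. Afp was high in 1 replicate of each genotype, mutant 2, heterozygote 4 and wild type 1.

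Markers of proliferation and of 7 tissues were read from the same arrays, since a bulk sample cannot tell fewer cells of a type from less RNA per cell. Of 15 proliferation markers 0 passed between homozygous mutants and wild type and 12 had log2 differences below 0, with a median of -0.14. Of all 3909 tested genes 0.179% were called lower, 0.537% higher and 54.5% were below 0, with a median of -0.03. The same shares against wild type stand beside each marker list below. The summed intensity of the proliferation markers on type a was 74132 to 82244 in the mutants. It was 92673 to 94808 in heterozygotes and 83827 to 98325 in wild type, so the mutants lay under both other genotypes. On type b the sums were 49218 to 53872, 56320 to 61000 and 49908 to 62120 in the same order and overlapped between mutants and wild type. Mki67, a marker of cycling cells, had 11084.6, 10846.6 and 14268.8 in the mutants, against 10064.5, 9106.1 and 12019.9 in heterozygotes and 7692.5, 11502.8 and 13046.9 in wild type, and its genotypes overlapped. Pcna, another proliferation marker, had 10175.3, 13397.9 and 12037.7 in the mutants. It had 14379, 12780.9 and 11065.7 in heterozygotes and 10781.3, 13480.3 and 13890 in wild type, and also overlapped.

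Neural tube markers were low in the mutants beside Hcfc1 and Cenpb. All 7 that were tested had log2 differences below 0 against wild type, with a median of -1.02 and 0 past the threshold. Against heterozygotes 1 of them fell, Hes5, a target of Notch signalling (-1.26, limma adjusted p = 0.0335), beside 0.333% of all tested genes called lower. The summed intensity of the neural tube markers on type b was 881.2 to 1671 in the mutants, 2600 to 4127 in heterozygotes and 3081 to 5980 in wild type. Of 4 probe sets 0 to 1, 2 to 3 and 2 to 3 were over the floor. On type a the sums were 8602 to 22969, 21184 to 26418 and 20618 to 28894 in the same order. Tubb3, a tubulin of neurons, had 918.3, 542.9 and 243.8 in the mutants, against 1582.8, 1846.4 and 2395.8 in heterozygotes and 4521.9, 2227.9 and 1502.8 in wild type (adjusted p = 0.0609 against wild type). The part of neural tissue in the values of the chromatin genes was not tested. Median log2 differences from wild type were 0.12 for 9 heart muscle markers, -0.02 for 7 erythroid, 0.07 for 6 liver bud and visceral endoderm, 0.13 for 8 mesenchyme and 0.04 for 5 endothelium markers, with 0 past the threshold in each. Of 5 epithelium markers 1 rose, Krt19, to 3763 ± 262 in the mutants, against 676 ± 137 in heterozygotes and 734 ± 170 in wild type (SD, n = 3 each, limma adjusted p = 0.00141 against wild type), and the median was 0.72.

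Hcfc1 lies on the X chromosome, and the sex of the embryos is not in the labels. Xist, the RNA of the inactive X, had 2051.8, 1480.0 and 576.4 in the homozygous mutants, against 1158.4, 1706.8 and 967.1 in heterozygotes and 738.0, 998.0 and 814.5 in wild type, and was over the floor on every array. Of 101 other X-linked genes tested 0 passed between mutants and wild type, 45.5% were below 0 and their median was 0.03. Of all tested genes 0.179% were called lower, 0.537% higher and 54.5% were below 0, with a median of -0.03.

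Wider lists of chromatin genes held 238 genes, of which 119 were tested, each at its brightest probe set, and 109 of these were not among the 10 genes above. Between homozygous mutants and wild type 0 of the 109 passed in limma, beside 0.179% of all 3909 tested genes called lower and 0.537% higher. At an unadjusted p under 0.05, 14 were lower and 1 higher, beside 380 lower and 397 higher of all 6935 tested probe sets. None of the 109 passed in any of the 19 other settings. Of the 109 genes 70 had log2 differences below 0 and the median was -0.09, beside 54.5% and a median of -0.03 over all tested genes. Every mutant value was under every wild-type value for 18 of them and above for 3, beside 8.7% and 7.85% of all genes. Against heterozygotes 0 of the 109 passed, beside 0.333% of all tested genes called lower and 0.767% higher. Here 16 were lower and 2 higher at an unadjusted p under 0.05, beside 590 lower and 500 higher of all 6935 tested probe sets. In 4 of the 19 other settings 1 or 2 of the 109 did pass there. Hmgb3, a DNA-bending HMG protein, was lower after quantile normalization (log2 fold change -0.69, limma adjusted p = 0.0392). Hira, a histone H3.3 chaperone named after its value was seen, was lower at a floor of 4 times the noise (-0.85, adjusted p = 0.0387). Kmt5c, a histone H4 methyltransferase, was higher at that floor, with probe sets required over the floor on 6 arrays, and without heterozygote 8 (adjusted p = 0.0340, 0.0446 and 0.000725 in limma). Heterozygotes 3, 4 and 8 had -7.5, -201.2 and 3639.2 at that Kmt5c probe set, so without heterozygote 8 the remaining values lay under 0. The other Kmt5c probe set had -0.04 against heterozygotes in the main fit (adjusted p = 0.957 in limma). Of the 10 genes themselves Hcfc1 was past the threshold against wild type, and Hcfc1, Cenpb and Rcc1 against heterozygotes. Since Hcfc1 and Cenpb had been chosen by such values, nothing is read from their part of these counts. Between heterozygotes and wild type 0 of 119 passed.

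**Figure D4:**
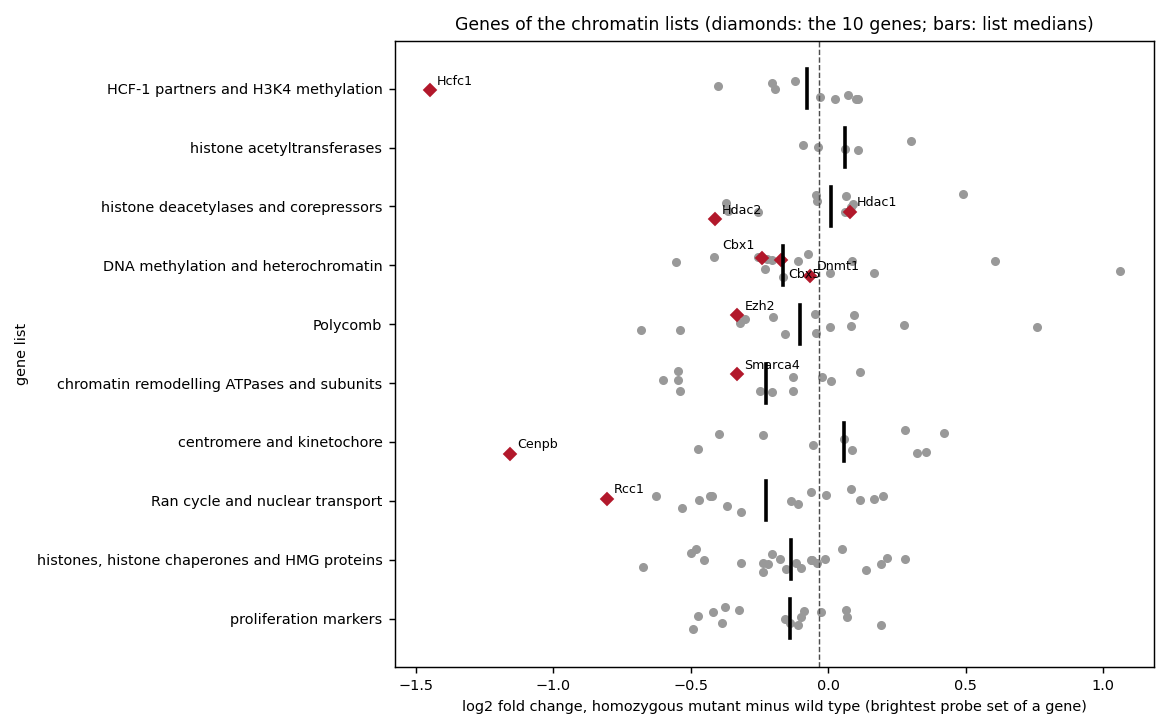
Log2 fold change of homozygous mutant minus wild type for each tested gene of 9 chromatin lists and the proliferation markers, at the brightest probe set of a gene; vertical spread within a list has no meaning. Diamonds are the 10 genes followed here, black bars are list medians and the dashed line is the median of all tested genes, -0.03. The remodelling and Ran lists have the lowest medians, both -0.23, and Hcfc1, Cenpb and Rcc1 stand left of the other genes in their lists.

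Among nucleosome remodelling subunits 10 of 12 tested genes had log2 differences below 0 against wild type, beside 54.5% of all tested genes. Against heterozygotes it was 12 of 12, beside 56.9%. The list medians were -0.23 and -0.20, beside -0.03 and -0.07 over all tested genes, and 0 passed the threshold. Without Smarca4 the counts were 9 of 11 and 11 of 11, with medians of -0.20 and -0.25. The same 54.5% and -0.03 against wild type stand beside each list below. Smarce1, a SWI/SNF subunit with an HMG domain, had 4354.9, 4028.2 and 3555.1 in the homozygous mutants, against 5806.1, 5695.4 and 5669.6 in heterozygotes and 6267.3, 5381.2 and 6459.8 in wild type. The mutants did not overlap the others, and the difference of -0.60 (SE 0.139) did not pass (adjusted p = 0.0862). Actl6a, an actin-related subunit, and Smarcd1, another SWI/SNF subunit, both named after their values were seen, had -0.55 each (adjusted p = 0.112 and 0.201). Pbrm1, a subunit that reads acetylated histones, was the highest of the list, at 0.12 (adjusted p = 0.918).

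In the list of the Ran cycle and nuclear transport 12 of 16 tested genes were below 0 against wild type, with a median of -0.23, and 11 of 15 without Rcc1, with a median of -0.14. Kpnb1, the importin that carries proteins into the nucleus and whose cargo Ran releases, had 5045.0, 5850.5 and 5211.4 in the homozygous mutants, against 7548.3, 6821.4 and 9089.5 in heterozygotes and 7091.6, 8000.9 and 8172.0 in wild type. No mutant value reached the others, and the difference was -0.53 (adjusted p = 0.154). Tnpo1, another import receptor, was highest, at 0.20 (adjusted p = 0.690).

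Histones, their chaperones and HMG proteins had 17 of 22 genes below 0 against wild type, with a median of -0.13 and 0 past the threshold. Hmgb3 averaged 10013 ± 800 in the homozygous mutants, 14979 ± 945 in heterozygotes and 14024 ± 2033 in wild type (SD, n = 3 each). Its mutants lay under all other arrays, at -0.48 from wild type (adjusted p = 0.212), and a second probe set gave -0.43. H3f3b, a gene of the replacement histone H3.3, was at 0.28 (adjusted p = 0.587).

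Polycomb genes had 9 of 14 below 0 and a median of -0.10, or 8 of 13 and -0.05 without Ezh2. The list for DNA methylation and heterochromatin had 12 of 17 below 0 and -0.16, or 9 of 14 and -0.14 without Dnmt1, Cbx1 and Cbx5. Jarid2, a partner of PRC2 that is needed for heart development in mice, had 3387.1, 3597.3 and 2863.8 in the homozygous mutants, against 2005.3, 2285.4 and 1797.4 in heterozygotes and 2097.3, 2120.1 and 1620.6 in wild type. It was higher in every mutant, by 0.76 (SE 0.189), but did not pass (adjusted p = 0.119), and its dimmer probe sets had 0.50 and 0.12. Phc2, a subunit of PRC1, was lower by log2 differences of -0.54 and -0.84 at its 2 probe sets (adjusted p = 0.327 and 0.116). Kmt5a, which adds a single methyl group to histone H4, had -0.55 (adjusted p = 0.269). For Kmt5c, a related enzyme, the probe sets disagreed, with 1.06 and -0.09 (adjusted p = 0.643 and 0.942).

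HCF-1 partners and H3K4 methylation genes had 6 of 10 below 0, with a median of -0.08, and 5 of 9 without Hcfc1, with a median of -0.03. E2f1, a cell cycle activator that binds HCF-1, averaged 1474 ± 154 in the homozygous mutants, 1899 ± 359 in heterozygotes and 1946 ± 227 in wild type (SD, n = 3 each), a difference from wild type of -0.40 (adjusted p = 0.529). Gabpa, a subunit of a factor that recruits HCF-1, was near the floor, at 0.10 (adjusted p = 0.888). Histone deacetylases and corepressors had 6 of 12 below 0 and a median of 0.01, or 5 of 10 and 0.01 without Hdac1 and Hdac2. Ctbp1, a corepressor, was at -0.26 and Hdac5, a class II deacetylase, at 0.49 (adjusted p = 0.517 and 0.764). Of 5 acetyltransferases 2 were below 0 and the median was 0.06, with Kat7 at 0.30 and Kat2a at -0.09 (adjusted p = 0.493 and 0.918).

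Centromere and kinetochore genes, the list that holds Cenpb, had 5 of 11 below 0 against wild type and a median of 0.06, or 4 of 10 and 0.07 without Cenpb. Plk1, a mitotic kinase, had -0.47 (adjusted p = 0.521) and Sgo1, which protects centromeric cohesion, 0.42 (adjusted p = 0.458). Sgo1 had 2020.7, 2010.5 and 2027.5 in the homozygous mutants, against 1722.8, 1540.0 and 2016.9 in heterozygotes and 1500.8, 1344.6 and 1696.8 in wild type. Its mutants were above all wild types, opposite to Cenpb.

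The genes most like Hcfc1 were sought among 979 genes of type b by Pearson's correlation of log2 intensity over its 9 arrays. These arrays share their scaling and their genotypes, so the correlation mostly follows the step between mutants and the rest and is given as a description. Rcc1 was the most like Hcfc1, with r = 0.96, followed by Cdkn1a, a cell cycle inhibitor, with 0.94, Gpc1, a cell surface proteoglycan, with 0.94, Srprb, of the signal recognition particle receptor, with 0.93, and Hand2, a heart and limb transcription factor, with 0.93. Cdkn1a had 45.5, 99.1 and 50.1 in the homozygous mutants, all under the floor, against 1024.5, 969.3 and 856.1 in heterozygotes and 644.7, 744.6 and 905.3 in wild type. Hand2 had 812.5, 314.9 and 551.6 in the mutants, against 1418.0, 1488.6 and 1626.8 in heterozygotes and 1138.3, 1691.4 and 1101.2 in wild type. Both show the same step as Hcfc1, low in every mutant, which follows from picking them by this correlation.

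Cenpb ranked 18 among the genes most like Hcfc1, with r = 0.88, and the dimmer Cbx1 probe set ranked 39, with 0.82. Among those most like Cenpb the dimmer Cbx1 probe set ranked 13 and Rcc1 14, both with r = 0.84. Smarca4, Dnmt1 and the type b probe set of Cbx5 had r = 0.28, 0.25 and -0.08 with Hcfc1. Most like Cenpb were Neurog2, a neurogenic transcription factor, with r = 0.92, Gpc1 with 0.92, Cdc6, which loads replication helicases, with 0.92, Ahcy, which clears the product of methylation reactions, with 0.90, and Ubtf, a factor of ribosomal RNA transcription, with 0.89. Neurog2 is also one of the neural tube markers and had 335.0, 54.1 and 503.2 in the homozygous mutants, against 639.2, 1142.2 and 1202.4 in heterozygotes and 1030.3, 912.5 and 1016.6 in wild type. All of its mutant values were under the floor.

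**Figure D5:**
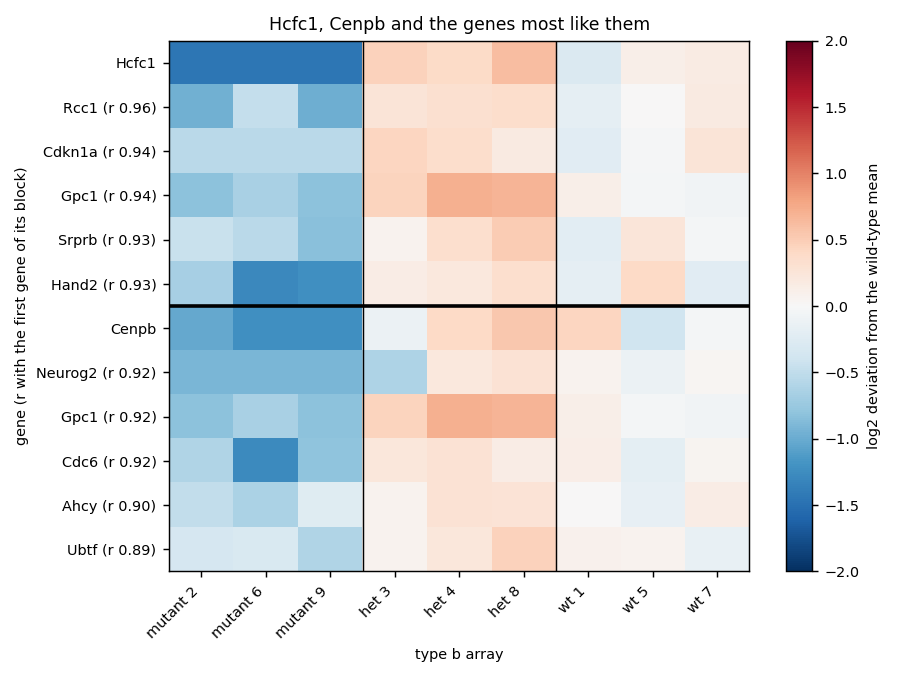
Log2 deviation from the wild-type mean, after the floor, on each type b array for Hcfc1 and the 5 genes most like it (upper block) and for Cenpb and the 5 most like it (lower block); blue is lower and red higher, with homozygous mutants left, heterozygotes in the middle and wild type right. Every row is blue in the 3 mutant columns, which follows from how the rows were picked. Hcfc1 is at the floor in all 3 mutant columns, at -1.45.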

How the data were processed

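RNA of the middle part of mouse embryos was measured on 18 single-colour arrays, 9 of each type. Each deposited value is the intensity of 1 probe set as scaled by the authors. Array software, background correction and scaling target: not given in the sources used here. The intensity was kept as scaled, because trimmed means (2% trimmed) differed by under 1% within a type. Control probe sets, 55 of the maker and 6 of yeast on each type, were left out. Of 13057 probe sets 7542 had 1 symbol, 224 several and 5291 none in the platform annotation, with symbols updated through gene identifiers. No column was left unused, and heterozygote 8 of type b lacks 499 values.

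The noise SD, the scaled median size of negative values, was 187.5 for type a and 261.5 for type b, and 2 times it gave the floor. Probe sets over the floor on at least 3 of 9 arrays were tested on log2 values with limma (version 3.58.1, under R 4.3.3; two-sided moderated tests whose prior spread followed intensity), with Benjamini-Hochberg adjustment over both types together. All adjusted p-values are limma's. The fit was tested on simulated data. The number of arrays limits the precision.

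All probe sets of the 10 genes are named. From each wider list the rule names each gene past the threshold and the gene with the smallest p on each side against wild type, and for Hcfc1 and Cenpb the 5 most correlated genes. The marker lists were proliferation, heart muscle, neural tube, erythroid, liver bud and visceral endoderm, mesenchyme, endothelium, gut and surface epithelium, and sex-linked genes, of which Xist alone was tested. Lists were described by counts and medians. Members and lists were chosen with earlier results of these data known. Cross-hybridisation of probe sets was not tested, and proteins were not compared.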

Additional observations from a re-analysis of the deposited data

How the results depend on the processing

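The 19 other settings changed the scaling, the floor, the filter, the spread model, the samples in the fit, a block on Afp, or left out 1 replicate, which leaves 2 arrays in that genotype. No paired analysis was possible because the genotypes compared share fewer than 2 replicate numbers. Between homozygous mutants and wild type 48 probe sets passed, against 19 without a filter on low values, 7 with only the compared groups in the fit, and 14 to 55 with 1 replicate left out (27 without heterozygote 3, 18 without mutant 2, 14 without wild type 5, 16 without wild type 7). Of all 119 chromatin genes 1 passed, and 0 at the floor of 4 noise SD, 0 with only the compared groups, and 0 to 1 with a replicate left out (0 without heterozygote 3 or 4, mutant 2 or 6, or wild type 5 or 7). Between heterozygotes and wild type 0 became 0 to 1 with a replicate left out, for all probe sets (without heterozygote 8 or wild type 7) and for chromatin genes (Kmt5c, without heterozygote 8). Between mutants and heterozygotes 80 probe sets became 45 without a filter, 40 with only the compared groups and 14 to 88 with a replicate left out (14 without heterozygote 3, 15 without 4, 41 without 8, 32 without mutant 2, 47 without wild type 5). The 3 of all 119 chromatin genes became 1 without a filter and with only the compared groups, 4 at the floor of 4 noise SD and with a filter of 6 arrays, and 1 to 3 with a replicate left out (1 without heterozygote 3 or 4, mutant 2 or wild type 5). These counts hold Hcfc1 and Cenpb, which were chosen by their mutant values, so their stability says nothing. Without the 10 genes, 0 became 1 after quantile normalization, 2 at the floor of 4 noise SD, 1 with the filter of 6 arrays and 0 to 1 with a replicate left out (1 without heterozygote 8). The causes were not tested.

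Signs turned for some differences of single probe sets, none of which passed in any setting; the largest of these as reported was 0.27, for Hdac2 in heterozygotes minus wild type. Heterozygous minus wild type, Dnmt1 was -0.047 after quantile normalization, -0.074 after median scaling and -0.00033 with an offset in place of the floor, and Cbx5 on type b -0.045 and -0.013 after the first 2. Homozygous mutant minus heterozygous, Dnmt1 was 0.015 and 0.048, and Cbx5 on type b 0.15, 0.12 and 0.0039, in the same order. With 1 replicate left out, heterozygous minus wild type ran from -0.13 to 0.19 for Dnmt1, -0.18 to 0.28 for Ezh2, -0.087 to 0.32 for Hdac1, -0.0059 to 0.48 for Hdac2, and -0.056 to 0.14, -0.12 to 0.25 and -0.050 to 0.13 for Cbx5. Homozygous mutant minus heterozygous ran from -0.15 to 0.054 for Dnmt1, -0.32 to 0.28 for Hdac1, -0.45 to 0.098 for Smarca4, -0.36 to 0.063 for the brighter Cbx1 and -0.12 to 0.21 for Cbx5 on type b. Homozygous mutant minus wild type ran from -0.20 to 0.12 for Dnmt1, -0.24 to 0.35 for Hdac1, and -0.24 to 0.049, -0.34 to 0.027 and -0.061 to 0.27 for Cbx5.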
